A study of Mus musculus with 16 samples.

Results

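The results below concern the dependence of the HP1 knockout effect on the isoform that was deleted, measured as an interaction over all 16 of the 16 samples of the series. For each gene the difference between HP1α knockout (KO) and HP1α wild type (WT) was set against the difference between HP1γ KO and HP1γ WT, with 4 samples per group. The cells were memory CD4+ T cells sorted from mouse spleen (CD4+CD25low/-CD62L-CD44high), and their polyadenylated RNA was sequenced. Titles and cell type labels name memory cells throughout, whereas the treatment label of the same samples speaks of transferred regulatory and conventional T cells, and this was not resolved. The study left out an HP1γ RNA library for poor quality, and whether it is among these samples is not known, so every sample was also left out in turn. In the HP1α line a floxed allele had been excised in all tissues by crossing with CMV-cre mice, and Hp1a-/- animals were compared with Hp1a+/+ littermates. In the HP1γ line both groups were homozygous for the floxed Hp1g allele, and the KO animals also carried the Cd4-cre transgene, which is expressed in T cells. Both lines were on a mixed 129/Sv × C57BL/6 background, and sex-matched littermates of 6 to 12 weeks were used. Cd4-cre was present only in HP1γ KO, so that loss of HP1γ and presence of the transgene cannot be told apart, and nor can the isoform and the line. The labels number the samples of each group 1 to 4 without naming separate animals, so the p-values measure the spread between these samples.

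HP1 proteins are small chromatin proteins whose chromodomain binds histone H3 methylated at lysine 9 and whose chromoshadow domain recruits partners such as histone methyltransferases. Cbx5 encodes HP1α, Cbx1 encodes HP1β and Cbx3 encodes HP1γ. HP1α is known mainly from constitutive heterochromatin, whereas HP1γ is also found within transcribed genes and has been linked to elongation and to RNA processing. A positive interaction on the log2 scale, as used below, means that the KO effect in the HP1α line lay above that in the HP1γ line.

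The libraries held between 26694045 and 40199637 estimated counts (median 32360727). The defining markers of the sorted cells were abundant in all of them, with Cd4 between 1015 and 1370 CPM (counts scaled to library size) and Cd44 between 259 and 377 CPM. Cd8a lay between 0.541 and 7.39 CPM. None of the 16 B cell markers tested, the 13 myeloid markers or the 2 CD8 T cell markers had an interaction at an unadjusted p under 0.05, whereas 1 of the 9 erythroid and platelet markers did. Over all genes the shares were 4.67% positive and 4.91% negative. B cell markers still leaned positive, in 14 of 16 estimates (median 0.26). Their median KO effect was 0.64 in the HP1α line, with 16 of 16 above 0, and 0.29 in the HP1γ line, with 1 below 0. Myeloid markers had a median interaction of -0.23. The summed erythroid and platelet markers ranged from 38.7 to 191 CPM in HP1α KO, from 19.3 to 549 in HP1α WT, from 88.2 to 1217 in HP1γ KO and from 49.3 to 534 in HP1γ WT. The ranges overlapped, but 3 of the 4 HP1γ KO samples (1027, 1217 and 845 CPM) lay above all 12 samples of the other groups. All 9 markers had a negative interaction (median -2.10), with a median KO effect of 1.49 in the HP1γ line and -0.64 in the HP1α line. HP1γ KO replicate 3, at 88.2 CPM, lay within the range of HP1γ WT. The part of B cell, myeloid, erythroid and platelet RNA in the other results was not tested. In bulk samples, fewer cells of a type and less RNA per cell cannot be told apart.

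The targeted genes were examined first. Cbx5 measured 28.7, 27.6, 23.0 and 29.0 CPM in HP1α KO, against 37.8, 54.0, 35.7 and 33.8 CPM in HP1α WT. The KO samples all lay below the WT samples, but the decrease of 0.57 on the log2 scale (SE 0.16, unadjusted p = 0.0020) did not pass the adjustment (adjusted p = 0.996). In the HP1γ line Cbx5 measured 20.1, 22.7, 28.9 and 29.8 CPM in KO and 27.1, 27.4, 33.5 and 37.4 CPM in WT, and these ranges overlapped. Cbx5 gave no interaction past the threshold (log2 difference -0.27, 95% interval -0.74 to 0.20, adjusted p = 0.75, edgeR's quasi-likelihood test). The counts are for whole genes, so that reads from exons outside the deleted parts could not be separated.

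Cbx3 measured 50.3, 46.3, 45.9 and 47.5 CPM in HP1γ KO against 92.5, 90.2, 73.4 and 82.0 CPM in HP1γ WT. It thus fell by 0.83 on the log2 scale (SE 0.11, adjusted p = 0.0011) with no overlap. In the HP1α line the samples overlapped, at 89.0, 78.5, 69.2 and 83.6 CPM in KO and 84.5, 112, 81.8 and 75.6 CPM in WT. The interaction of Cbx3 was 0.69 (SE 0.16, unadjusted p = 0.00040, adjusted p = 0.19), so that even the gene deleted in 1 line and not in the other did not pass the adjustment in this fit. With DESeq2 Cbx3 passed (adjusted p = 0.0089). HP1α WT replicate 2 was the highest sample for both Cbx5 and Cbx3, and without it the interaction of Cbx3 was 0.82 with an adjusted p of 0.016 and that of Cbx5 -0.097 with an adjusted p of 0.93. On the log2(TPM + 1) and log2(TPM + 0.1) scales the interaction of Cbx5 was -0.66 and -0.74 (adjusted p = 0.47 and 0.48, limma). Cbx1, the isoform deleted in neither line, had a log2 difference of 0.04 (95% interval -0.32 to 0.41).

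Of 15776 genes tested, 8 had an interaction at an adjusted p under 0.05 (0.0507%), and 5 of them also had an absolute log2 difference above 1 (0.0317%). These 5 were Mbd1, Dnah12, Gm47015, Shisa6 and Gm49215, all with the HP1γ effect above the HP1α effect. The other 3, described here, were Marchf6, Oxsr1 and Als2cl, whose differences were below 1. In the scatter of the KO effects of both lines, these genes lay farther from 0 along the HP1γ axis than along the HP1α axis. Of the 8, Dnah12 and Gm47015 also had an HP1α effect at an unadjusted p under 0.05 (-1.26 and -0.39, against 3.71 and 0.73 in the HP1γ line). All 8 had their larger KO effect in the HP1γ line, KO and WT samples of that line did not overlap for any of the 8, and none of the 8 separated KO from WT in the HP1α line. Over all genes tested, KO and WT samples did not overlap for 6.92% in the HP1γ line and for 2.99% in the HP1α line. The 8 genes were chosen by the interaction in these same values. That choice by itself favours a large effect and no overlap in at least 1 line, so these counts are a description only.

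**Figure D1:**
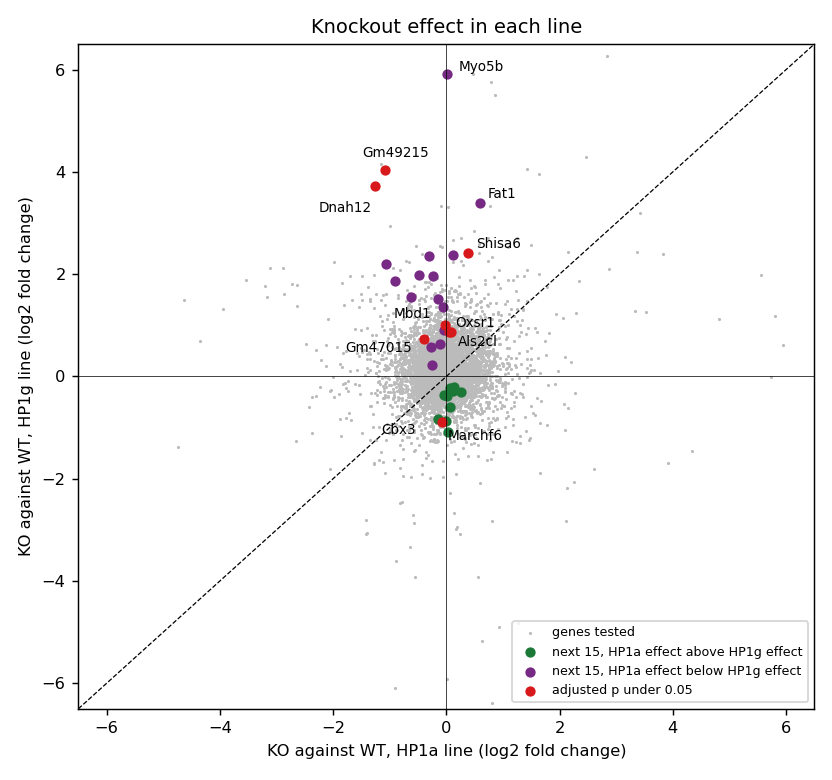
Knockout effect (log2 fold change, KO against WT) of each tested gene in the HP1α line (x axis) and the HP1γ line (y axis); red points are the 8 genes with an interaction at an adjusted p under 0.05, green and purple points the next 15 genes in each direction, and the dashed line marks equal effects. Axes end at 6.5, which leaves out 13 of 15776 genes, Rpl35a-ps3 among them; Marchf6 sits at -0.08 and -0.90, Oxsr1 at 0.04 and 0.87.

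Marchf6 encodes a membrane-embedded ubiquitin ligase of the endoplasmic reticulum that takes part in the degradation of misfolded proteins and of enzymes of sterol synthesis. It is located on chromosome 15 from 31454566 to 31531252 (GRCm39, minus strand). Marchf6 measured 57.6, 54.4, 46.6 and 48.3 CPM in HP1γ KO and 99.6, 97.7, 95.4 and 93.0 CPM in HP1γ WT. The 4 HP1γ KO samples were the lowest of all 16. HP1α samples measured 89.0, 87.4, 88.7 and 89.9 CPM in KO against 87.0, 105, 89.2 and 95.3 CPM in WT, and the groups overlapped. Marchf6 fell by 0.90 on the log2 scale in the HP1γ line (SE 0.07) and differed by -0.08 in the HP1α line (SE 0.07), which gave an interaction of 0.81 (SE 0.10, 95% interval 0.60 to 1.03, adjusted p = 0.0020). The pseudogene Gm49215 lies within Marchf6 on the same strand, at 31521070 to 31521419, and moved the opposite way, from 0.0900 ± 0.0775 CPM in HP1γ WT to 1.59 ± 0.20 CPM in HP1γ KO (SD, n = 4). Gm49215 was the only 1 of 7 other tested genes within 1 Mb of Marchf6 with an interaction at an unadjusted p under 0.05. Over all genes 4.67% were positive and 4.91% negative at that threshold. The annotated transcript Gm49208 shares 265 identical bases with Marchf6, so that its estimated counts carry this uncertainty. On the log2(TPM + 1) and log2(TPM + 0.1) scales the interaction of Marchf6 did not pass (adjusted p = 0.21 and 0.30, limma).

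Oxsr1 encodes a kinase that acts downstream of the WNK kinases on cation-chloride cotransporters, and so takes part in the control of cell volume. It is located on chromosome 9 from 119067498 to 119151509 (minus strand). Oxsr1 measured 126, 169, 137 and 146 CPM in HP1γ KO and 80.5, 68.2, 85.7 and 82.8 CPM in HP1γ WT, with every KO sample above every WT sample. In the HP1α line the values were 80.3, 71.6, 71.8 and 78.9 CPM in KO and 71.1, 75.8, 68.1 and 78.7 CPM in WT. The 3 groups other than HP1γ KO thus shared a range. Oxsr1 rose by 0.87 on the log2 scale in the HP1γ line (SE 0.09, adjusted p = 9.9e-05), and its interaction was -0.82 (SE 0.13, 95% interval -1.09 to -0.55, adjusted p = 0.015). Oxsr1 is also a member of a list the study drew from HP1γ KO T cells in another experiment, described below. Its call was lost without HP1α KO replicate 2 (adjusted p = 0.062), with either replicate block and on the TPM scales.

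Als2cl, which encodes a relative of the Rab5 exchange factor alsin, showed another pattern. It is located on chromosome 9 from 110708832 to 110729598 (plus strand). Als2cl measured 274, 255, 288 and 261 CPM in HP1γ KO against 137, 129, 163 and 163 CPM in HP1γ WT. HP1α samples gave 249, 271, 237 and 245 CPM in KO and 221, 223, 221 and 285 CPM in WT. HP1γ WT lay below all other 12 samples. Of the HP1γ KO samples 2 lay above the highest HP1α KO sample and 1 above the highest HP1α WT sample, replicate 4, whereas the other 3 HP1α WT samples were below all HP1γ KO samples. The WT groups of the lines differed by 0.68 on the log2 scale (HP1α above HP1γ, adjusted p = 0.00044), Als2cl rose by 0.87 in the HP1γ line (SE 0.09, adjusted p = 0.00011), and the interaction was -0.79 (SE 0.13, adjusted p = 0.027). This call was the least stable of the 8. It was lost in 12 of 26 alternatives, among them those without HP1α KO replicate 1, 3 or 4, without any 1 of the 4 HP1γ KO samples and without HP1γ WT replicate 1 or 2, in which the adjusted p lay between 0.064 and 0.11. Als2cl shares 468 identical bases with an annotated transcript of its neighbour Tmie.

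**Figure D2:**
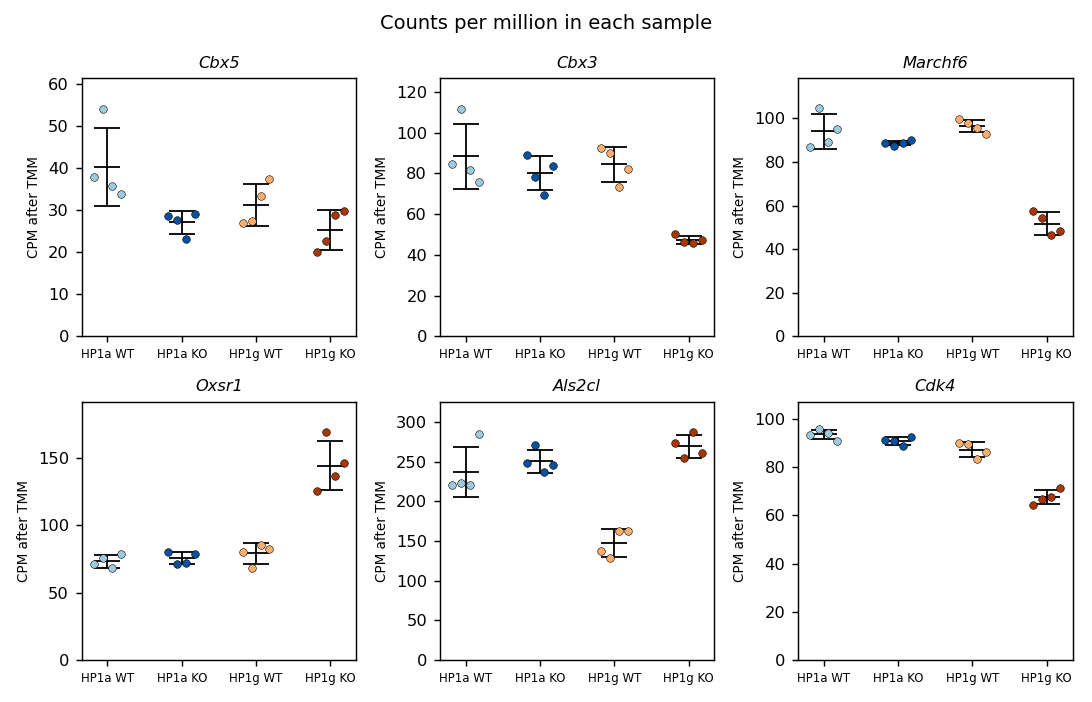
CPM after TMM normalisation (y axis, starting at 0) of Cbx5, Cbx3, Marchf6, Oxsr1, Als2cl and Cdk4 in each of the 16 samples, by group; points are samples and bars the mean ± SD (n = 4). Marchf6 and Oxsr1 depart only in HP1γ KO, whereas for Als2cl the HP1γ WT samples (129 to 163) lie below the other 3 groups.

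The 15 genes with the next smallest p in the positive direction, in which the HP1α effect lay above the HP1γ effect, had adjusted p-values between 0.12 and 0.27 and so did not pass. All 15 had an unadjusted p under 0.05 in the HP1γ line and 2 had one in the HP1α line. In 13 of the 15 genes HP1γ KO was the group farthest from the others. Their choice by the interaction favours such patterns by itself. Cdk4, the cyclin D-dependent kinase of the G1 phase, measured 64.2, 66.9, 67.8 and 71.3 CPM in HP1γ KO and 89.9, 89.5, 83.3 and 86.3 CPM in HP1γ WT. It fell by 0.37 in the HP1γ line (SE 0.05, adjusted p = 0.0011) and differed by -0.04 in the HP1α line (SE 0.05), with an interaction of 0.33 (SE 0.07, adjusted p = 0.13). Cdk4 was the only 1 of 54 cell cycle genes tested with a positive interaction at an unadjusted p under 0.05, beside Cenpa and Cdk6 with a negative one. These were 1.85% and 3.70% of the list, below the shares of 4.67% and 4.91% over all genes. Cdk4 shares 646 bases of annotated transcript with its neighbour Tspan31.

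Several genes of this group encode proteins of the T cell surface or of lymphocyte function. Thy1, the glycolipid-anchored Thy-1 antigen of T cells, measured 768, 779, 947 and 868 CPM in HP1γ KO and 1011, 999.8, 1030 and 1042 CPM in HP1γ WT, with an interaction of 0.40 (SE 0.09, adjusted p = 0.22). Klrk1, which encodes the activating receptor NKG2D, measured 22.1, 24.8, 22.6 and 24.98 CPM in HP1γ KO against 36.4, 32.0, 41.3 and 32.6 CPM in HP1γ WT, and fell by 0.59 in that line (SE 0.12, adjusted p = 0.032). Among HP1α samples it ranged from 37.3 to 44.5 CPM in KO and from 31.7 to 46.5 CPM in WT. Its interaction was 0.65 (SE 0.17, adjusted p = 0.27).

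Psme2, a subunit of the proteasome activator PA28, had an interaction of 0.32 (SE 0.08), Ctsd, a lysosomal aspartic protease, one of 0.29 (SE 0.07), and Ndufa6, a subunit of respiratory complex I, one of 0.35 (SE 0.08). Efhd2, Ttyh3, Flywch1, Isoc2a and Gpc1, the last a heparan sulphate proteoglycan, lay between 0.33 and 0.57. Pxdc1 had an interaction of 1.12 (SE 0.26, adjusted p = 0.20), and there HP1γ WT stood apart, at 12.4 to 20.2 CPM against 6.99 to 8.39 in HP1γ KO and 3.02 to 5.59 in the HP1α line. The gene listed only as ENSMUSG00000095742, with no symbol, measured 12.2 to 14.9 CPM in HP1γ KO and 22.9 to 27.7 CPM in HP1γ WT (interaction 0.87, SE 0.18, adjusted p = 0.12). Without HP1α WT replicate 3 it passed (1.01, adjusted p = 0.017). The pseudogene Rpl35a-ps3 was at 0 counts in all 4 HP1γ KO samples against 1.55 to 11.1 CPM in HP1γ WT, at least 73.7-fold lower when the floor of 3 counts per library is used. It was also at 0 in 2 of the 4 HP1α WT samples and matches Rpl35a over 337 bases, so that its counts are uncertain.

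The 15 genes with the next smallest p in the negative direction had adjusted p-values between 0.051 and 0.12. KO and WT samples of the HP1γ line did not overlap for 14 of these 15 genes, and for 1 of 15 in the HP1α line, and HP1γ KO stood apart in 13. These genes too were chosen by the interaction, which favours no overlap in at least 1 line. Several were measured at low levels in the other 3 groups. Myo5b, a myosin motor of vesicle recycling, measured 8.46, 7.83, 3.85 and 10.5 CPM in HP1γ KO and at most 0.204 CPM in any of the other 12 samples. It rose by 5.92 on the log2 scale in the HP1γ line (SE 0.55, adjusted p = 2.8e-05), while the interaction of -5.91 (SE 1.15) reached an adjusted p of 0.10. Its counts in HP1γ WT were between 1 and 8 reads, and Myo5b lies within 1 Mb of Mbd1.

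Fat1, a giant protocadherin, measured 3.75, 3.37, 3.14 and 3.31 CPM in HP1γ KO and 0.227, 0.408, 0.274 and 0.365 CPM in HP1γ WT, and rose by 3.39 (SE 0.38, adjusted p = 0.00016). In the HP1α line 2 of 4 KO samples (1.21 and 0.799 CPM) lay above all WT samples (0.313 to 0.605 CPM). The interaction was -2.80 (SE 0.52, adjusted p = 0.094), and without HP1α KO replicate 3 it passed at an adjusted p of 0.0097. Jag1, a ligand of Notch receptors, measured 19.8, 20.5, 21.2 and 9.60 CPM in HP1γ KO, 7.68, 7.85, 4.92 and 3.65 CPM in HP1γ WT and 1.24 to 3.44 CPM in the HP1α line. The WT groups thus already differed (by -1.34, HP1α below HP1γ, adjusted p = 0.0082), and the interaction was -2.18 (SE 0.42, adjusted p = 0.095). Without HP1γ KO replicate 4, the low sample, the interaction of Jag1 was -2.39 with an adjusted p of 0.019. Jag1 and Aph1a, a subunit of gamma-secretase, were the only 2 of 31 Notch pathway genes at an unadjusted p under 0.05, in opposite directions. Each was 3.23% of the list, below the shares of 4.67% positive and 4.91% negative over all genes.

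Tlr4, the receptor for lipopolysaccharide, measured 1.06 to 1.60 CPM in HP1γ KO and 0.292 to 0.408 CPM in HP1γ WT (interaction -2.46, SE 0.50, adjusted p = 0.12). Naip6, of the NLR family that senses bacterial proteins, measured 18.03 to 21.2 CPM in HP1γ KO and 7.47 to 13.0 CPM in HP1γ WT (interaction -0.94, SE 0.19). Igsf9b, an adhesion protein, measured 28.6 to 39.7 CPM in HP1γ KO and 7.93 to 18.9 CPM in HP1γ WT (interaction -1.42, SE 0.28) and passed without HP1γ WT replicate 3 (adjusted p = 0.023). The zinc finger genes Zfp462 and Zfp992, the pseudogene Gm13241 next to Zfp992, the pheromone receptor gene Vmn2r96 and the myosin gene Myh13 had interactions between -3.27 and -1.68. Zfp992 shares 4507 bases at 98.8% identity with Zfp991, and Gm13241 matches Gm13238 over 780 bases, so the levels of both are uncertain. Myh13 passed without HP1α WT replicate 4 (adjusted p = 0.028) and Gm13241 without HP1α KO replicate 1 (adjusted p = 0.040). Myh13 lies within 1 Mb of Shisa6, where 4 of 8 tested neighbours had a negative interaction at an unadjusted p under 0.05. Over all genes 4.91% were negative at that threshold, and Shisa6 was itself chosen for its interaction.

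Gm37240, whose annotation spans Arfip1 and shares 2244 identical bases with it, came closest to the threshold (-2.79, SE 0.49, adjusted p = 0.051) and passed in 8 of 24 alternatives, among them without HP1α KO replicate 1 (0.040), HP1α WT replicate 2 (0.046) or 3 (0.042) or HP1γ WT replicate 4 (0.012). A930004J17Rik measured 26.2, 27.6, 27.1 and 17.8 CPM in HP1γ KO and 15.04 to 17.8 CPM in HP1γ WT, and passed without HP1γ KO replicate 4 (adjusted p = 0.0053). Dnah8, an axonemal dynein heavy chain gene, was a further case in which HP1γ WT stood apart. It measured 69.4 to 94.9 CPM there, against 105 to 157 CPM in the other 12 samples. Snapc3, a subunit of the complex that activates snRNA genes, was the only 1 of these 15 that separated KO from WT in the HP1α line, at 14.04 to 15.6 CPM in KO and 16.9 to 18.02 CPM in WT. It shares 1298 bases of annotated transcript with Psip1.

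Below the adjusted threshold the interaction was spread over many small differences. At an unadjusted p under 0.05 there were 1511 genes, of which 736 had the HP1α effect above the HP1γ effect (4.67% of those tested) and 775 had it below (4.91%). For 1349 of the 1511 genes the KO effects had opposite signs in the lines. Selection for a large difference between the 2 effects favours opposite signs by itself, so this count does not show opposite actions of the isoforms. The HP1γ effect alone had an unadjusted p under 0.05 for 886 of these genes and the HP1α effect alone for 208. The same patterns were not counted over all genes tested. The following counts by gene list are read against these 2 background shares, and are descriptions of lists rather than calls for single genes.

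Cytosolic ribosomal proteins form the small (Rps) and large (Rpl) subunits of the ribosome. Their messenger RNAs are known to begin with a run of pyrimidines, the 5′ TOP element, through which mTOR signalling controls their translation. Of 87 tested genes, 75 (86.2%) had a positive interaction at an unadjusted p under 0.05 and 1 a negative one, with a median log2 difference of 0.28 against 0.004 over all genes. None passed the adjustment. The median KO effect was 0.06 in the HP1α line and -0.21 in the HP1γ line, and the estimate was below 0 in 84 of 87 genes in HP1γ KO. Most differences were of similar size, as the plot of the KO effect of each member shows. Rpl37a, a protein of the large subunit, had an interaction of 0.39 (SE 0.11, unadjusted p = 0.0020). It measured 562, 537, 593 and 568 CPM in HP1γ KO against 725, 689, 621 and 661 CPM in HP1γ WT, and 737 to 899 CPM in HP1α KO against 635 to 777 CPM in HP1α WT. The groups did not overlap in the HP1γ line and overlapped in the HP1α line. Rpl32 (0.34, SE 0.10) and Rps18 (0.33, SE 0.10) had interactions of the same sign. The exception was Rps4l, a copy of an Rps4 gene, at -1.30 (SE 0.51).

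The share of all counts that came from these genes was 6.16%, 5.67%, 5.87% and 6.01% in HP1γ KO and 7.19%, 6.99%, 6.28% and 6.57% in HP1γ WT. It was 7.33%, 7.48%, 8.23% and 7.31% in HP1α KO and 7.46%, 6.65%, 7.33% and 7.31% in HP1α WT. HP1γ KO was lowest with no overlap. HP1α WT overlapped both HP1α KO and HP1γ WT, whereas every HP1α KO sample lay above every HP1γ WT sample. HP1α KO replicate 3 was highest and HP1α WT replicate 2 low. The count of 75 was 56 without the former and 61 without the latter, and between 56 and 78 over all single samples left out. The difference between WT replicates 1 and 3 of the HP1γ line, 7.19% and 6.28%, was larger than that between WT replicate 3 and KO replicate 1.

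**Figure D3:**
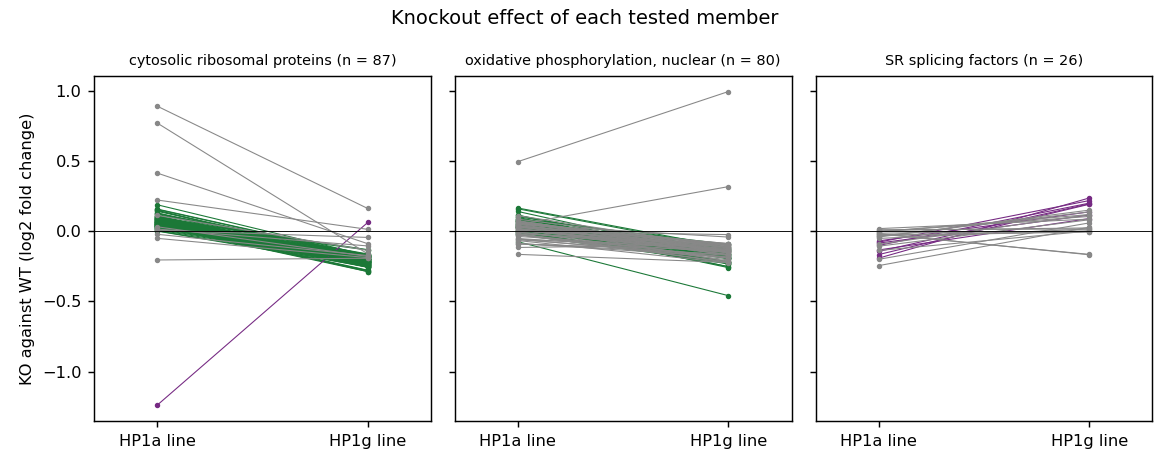
Knockout effect (log2 fold change, y axis) of each tested member in the HP1α and HP1γ line for 87 cytosolic ribosomal protein genes, 80 nuclear genes of oxidative phosphorylation and 26 SR splicing factor genes; lines join the values of 1 gene, green where the interaction was positive at an unadjusted p under 0.05, purple where negative, grey otherwise. Ribosomal protein genes cluster at a median of 0.06 and -0.21, and SR splicing factor genes run the other way, at -0.06 and 0.09.

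Start regions of ribosomal protein genes are shown because the interactions of these genes shared a sign. RefSeq sequences from 250 bases before to 50 after the annotated start (GRCm38.p6) were matched by symbol for 63 of the 87 genes and for 10526 tested genes in all. The pyrimidine motif CTTTCC, searched on both strands, was present on the strand of the gene in 36.5% of the ribosomal protein genes and 14.7% of all genes, and on the other strand in 17.5% and 13.6%. Within 25 bases of the start it was present on the strand of the gene in 10 of 63 (15.9%) against 2.29% of all genes. Of the ribosomal protein genes that hold it near the start, 4 are given as examples. Each is shown as 60 bases, 30 before the start and 30 from it, with the motif in capitals. The coordinates are chr11:114668550-114668609 (plus strand) for Rpl38, chr14:18270957-18271016 (minus) for Rpl15, chr7:45718041-45718100 (plus) for Rpl18 and chr2:39005102-39005161 (minus) for Rpl35.
Rpl38: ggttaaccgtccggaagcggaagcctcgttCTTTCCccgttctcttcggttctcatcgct
Rpl15: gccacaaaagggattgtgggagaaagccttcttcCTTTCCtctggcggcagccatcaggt
Rpl18: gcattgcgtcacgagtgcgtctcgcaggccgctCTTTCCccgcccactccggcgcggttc
Rpl35: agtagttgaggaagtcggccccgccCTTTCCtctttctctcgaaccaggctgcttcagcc
The 4 stretches were chosen for holding the motif around the start, so its place in them is given by the choice. Nuclear genes of oxidative phosphorylation, whose interactions had the same sign, held the motif within 25 bases of the start in 0 of 66 cases and anywhere on the strand of the gene in 18.2%. SR splicing factor genes, whose interactions had the opposite sign, held it there in 1 of 24 cases and anywhere on that strand in 9 of 24 (37.5%).

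Oxidative phosphorylation takes place in the inner mitochondrial membrane, and its complexes are built from nuclear and mitochondrial gene products. Of 80 nuclear genes tested, 33 (41.3%) had a positive interaction at an unadjusted p under 0.05 and none a negative one (median 0.19). The median KO effect was 0.03 in the HP1α line and -0.16 in the HP1γ line. Ndufa6 measured 48.6, 49.3, 52.4 and 56.5 CPM in HP1γ KO and 61.6, 61.8, 56.3 and 63.2 CPM in HP1γ WT. Its HP1α samples were 67.3 to 68.9 CPM in KO and 60.5 to 63.5 CPM in WT, so that the estimates of the lines had opposite signs. Atp5k, a subunit of ATP synthase, followed with 0.33 (SE 0.09), and Ndufa13 and Ndufb9, of complex I, with 0.30 (SE 0.09) and 0.25 (SE 0.08). On the TPM scales 17 and 15 of the 80 genes were at an unadjusted p under 0.05, in place of 33. None of the 13 genes encoded in mitochondrial DNA had an unadjusted p under 0.05, but all 13 estimates were negative (median -0.32), with HP1α effects of -0.42 for mt-Nd4 (unadjusted p = 0.011) and -0.24 for mt-Co1 (unadjusted p = 0.022). The count of negative members was 5 without HP1α WT replicate 1, 6 without HP1γ WT replicate 1 and 6 with a replicate block within line. Their share of counts was 1.53% to 1.76% in HP1α KO and 1.62% to 2.35% in HP1α WT.

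Genes of glycolysis and of the response to hypoxia showed a smaller shift. Of 34 tested, 7 (20.6%) had a positive interaction at an unadjusted p under 0.05, among them Pgk1 (0.24, SE 0.09) and Pgam1 (0.26, SE 0.10), both enzymes of lower glycolysis. Egln1, the oxygen-sensing prolyl hydroxylase, had 0.27 (SE 0.09). Pfkp, a phosphofructokinase, was the 1 gene with a negative value, at 312 to 474 CPM in HP1γ KO and 307 to 332 CPM in HP1γ WT (interaction -0.41, SE 0.14). The median over the list was 0.05, and on the log2(TPM + 1) and log2(TPM + 0.1) scales it was -0.007 and -0.02, with 1 and 0 positive members.

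The opposite direction was seen for SR splicing factors, RNA-binding proteins rich in arginine and serine that act in splice site choice. Of 26 tested genes 8 (30.8%) had a negative interaction at an unadjusted p under 0.05 and none a positive one (median -0.18). Srsf10 measured 104, 92.6, 80.7 and 77.6 CPM in HP1γ KO, 78.4, 76.6, 76.7 and 69.0 CPM in HP1γ WT, 65.5, 63.5, 68.8 and 65.5 CPM in HP1α KO and 71.4, 80.2, 75.2 and 73.9 CPM in HP1α WT. The HP1α KO samples were thus the lowest and HP1γ KO replicates 1 and 2 the highest. Its interaction was -0.43 (SE 0.11, unadjusted p = 0.0015). Srsf11 (-0.30, SE 0.10), the kinase Clk1, which phosphorylates SR proteins (-0.34, SE 0.12), and Rbm25 (-0.30, SE 0.11) followed. The count was between 6 and 12 over all single samples left out. In the HP1γ line replicates 1 and 2 lay close to each other, as did 3 and 4. The share of counts of SR genes in replicates 1 and 2 was 1.03% and 0.983% in KO and 0.867% and 0.858% in WT. In replicates 3 and 4 it was 0.973% and 0.923% in KO and 0.940% and 0.901% in WT, which overlapped.

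Numbered zinc finger (Zfp) genes mostly encode DNA-binding proteins, many of them with a KRAB domain that recruits the corepressor KAP1 and, through it, HP1 proteins. Of 336 tested genes 46 (13.7%) had a negative interaction at an unadjusted p under 0.05 and 2 (0.595%) a positive one (median -0.11). Zfp268 measured 10.6, 8.31, 8.82 and 10.0 CPM in HP1γ KO, 8.01, 6.81, 6.20 and 5.14 CPM in HP1γ WT, 2.29 to 3.53 CPM in HP1α KO and 3.64 to 9.95 CPM in HP1α WT. Its interaction was -1.46 (SE 0.38, unadjusted p = 0.0014). Zfp280d had -0.44 (SE 0.12). The count of 46 depended on single samples, with 24 without HP1α WT replicate 2 and 26 without HP1γ KO replicate 1.

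**Figure D4:**
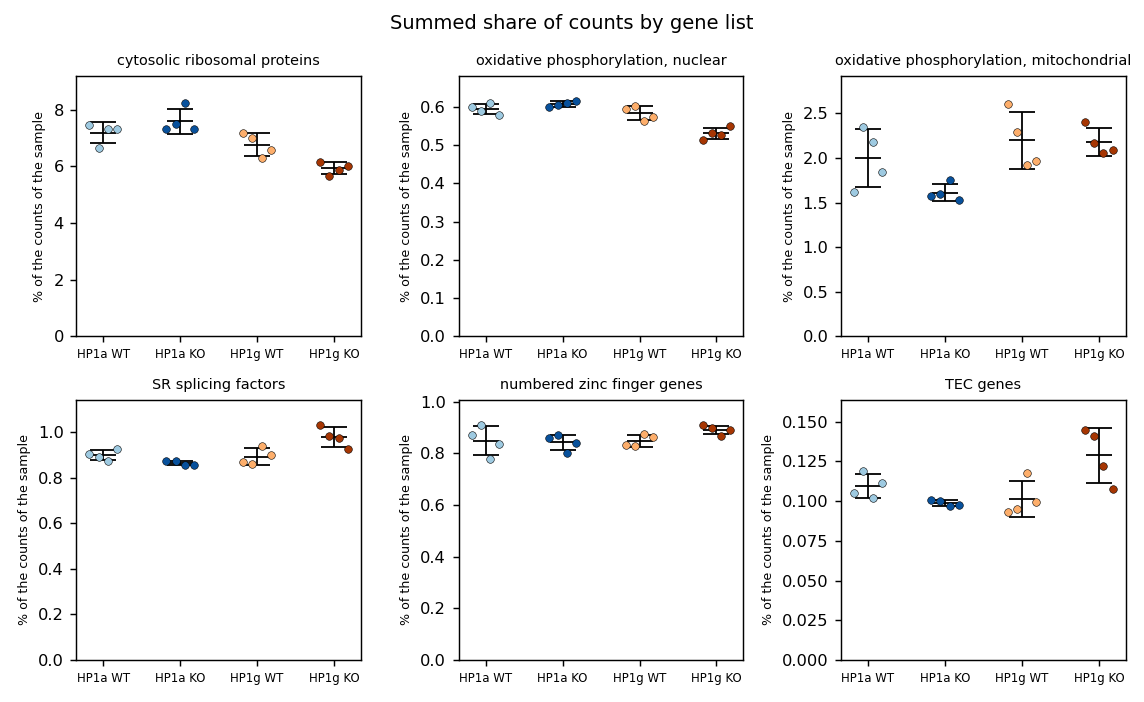
Share of the counts of each sample (%, y axis starting at 0) taken by 5 gene lists and by genes annotated as TEC (transcripts still awaiting experimental evidence), by group; points are samples and bars the mean ± SD (n = 4). The ribosomal protein share is lowest in HP1γ KO (5.67% to 6.16%), and the TEC share reaches its highest values there (0.108% to 0.145%).

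Transcript properties moved with these lists. Protein-coding genes with a summed exon length of 1000 to 2000 bases had a median interaction of 0.13 (0.13 without the ribosomal protein genes), and those above 8000 bases had a median of -0.05. Among the former, 8.73% had a positive interaction at an unadjusted p under 0.05 with ribosomal protein genes left out. Genes of the annotation class TEC, mostly single-exon transcripts with no assigned product, had a median of -0.50, with 105 of 582 (18.04%) negative and 1 positive at an unadjusted p under 0.05. Their share of counts was 0.145%, 0.141%, 0.122% and 0.108% in HP1γ KO, 0.0930% to 0.118% in HP1γ WT, 0.0968% to 0.101% in HP1α KO and 0.102% to 0.119% in HP1α WT. HP1γ KO replicates 1 and 2 were highest and HP1α KO lay below HP1α WT without overlap. Malat1 and Neat1, long RNAs retained in the nucleus, together took 0.266%, 0.262%, 0.234% and 0.206% of counts in HP1γ KO and 0.154% to 0.214% in HP1γ WT. In the HP1α line their share was 0.131% to 0.180% in KO and 0.146% to 0.201% in WT, so that HP1γ KO was highest and overlapped HP1γ WT alone. Gm47218 (-0.67, SE 0.15) and Gm47260 (-0.55, SE 0.13), named after their values were seen, had the smallest p in this class after A930004J17Rik. The part of transcript length, of the TEC class and of nuclear RNA in the results for the ribosomal protein, oxidative phosphorylation, SR and zinc finger genes was not tested.

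**Figure D5:**
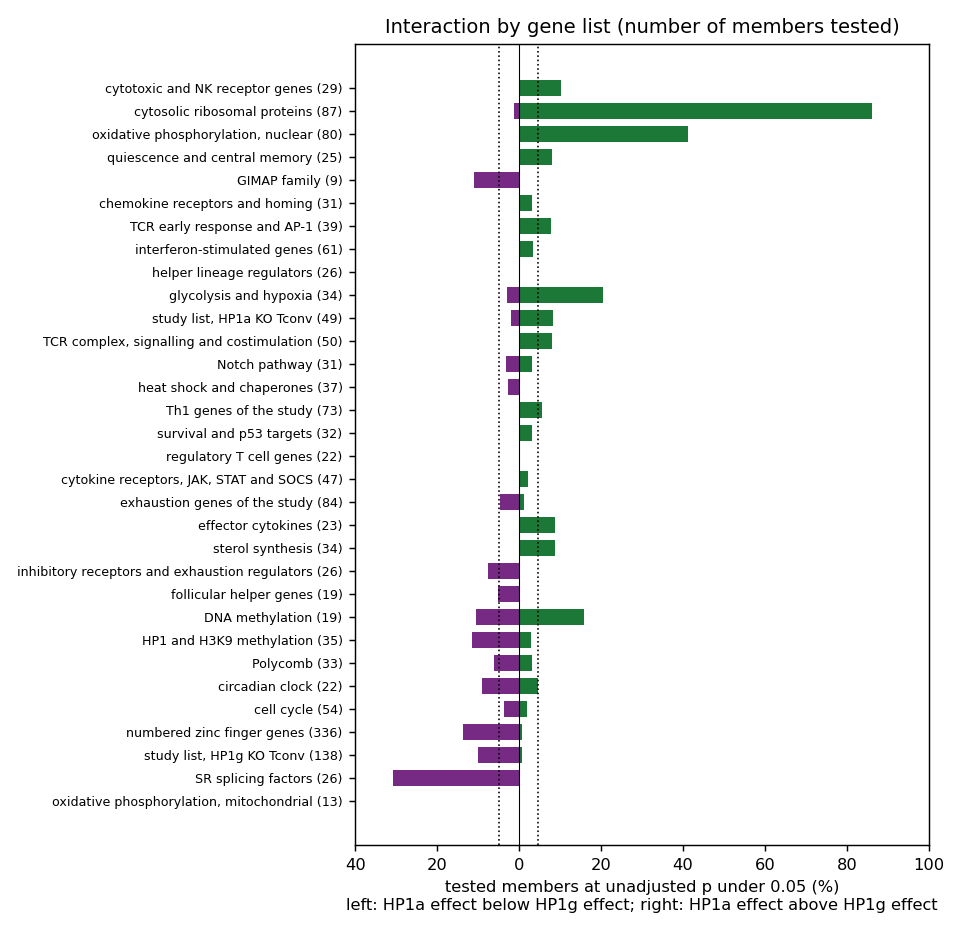
Share of the tested members of each gene list (%, x axis; number tested in brackets) with an interaction at an unadjusted p under 0.05, to the right where the HP1α effect lay above the HP1γ effect and to the left where it lay below; dotted lines mark the shares over all genes (4.67% and 4.91%). Ribosomal proteins (86.2%) and nuclear oxidative phosphorylation (41.3%) reach farthest to the right and SR splicing factors (30.8%) farthest to the left.

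Chromatin genes were examined as the immediate context of HP1. Of 35 genes of HP1 and H3K9 methylation, Cbx3 was the 1 (2.86%) with a positive interaction at an unadjusted p under 0.05, and 4 (11.4%) were negative. Kdm1a, a demethylase of H3K4, measured 86.0, 86.4, 81.5 and 76.3 CPM in HP1γ KO and 72.3, 68.7, 69.1 and 75.6 CPM in HP1γ WT (interaction -0.25, SE 0.08). Smchd1, which acts in silencing of the inactive X chromosome, had -0.44 (SE 0.14), and Atrx, a remodeller that deposits H3.3 in heterochromatin, -0.34 (SE 0.12). Of 19 genes of DNA methylation 3 (15.8%) were positive and 2 (10.5%) negative. Beside Mbd1, these were Mbd3, Mbd2, Zbtb38 and Tet2. Mbd3, a subunit of the NuRD complex, measured 55.0, 63.8, 72.4 and 68.8 CPM in HP1γ KO. It measured 85.3, 73.4, 75.3 and 84.5 CPM in HP1γ WT (interaction 0.37, SE 0.11). Mbd2 had 0.22 (SE 0.08), the methyl-CpG reader Zbtb38 0.36 (SE 0.11) and the dioxygenase Tet2 -0.30 (SE 0.09). The methyl-CpG-binding proteins Mbd1 and Mbd2 thus had interactions of opposite sign. Of 33 Polycomb genes 1 (3.03%) was positive, Phc2, and 2 (6.06%) negative, Kdm6a and Mtf2. Over all genes the shares were 4.67% and 4.91%.

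Lists of T cell function held few members at an unadjusted p under 0.05, though estimates of some lists leaned to one sign. None of the 26 regulators of helper lineages and none of the 22 regulatory T cell genes had an unadjusted p under 0.05. Of 73 Th1 genes of the study 4 (5.48%) were positive, namely Klrk1, the IL-27 receptor gene Il27ra (0.31, SE 0.10), Fasl (0.29, SE 0.11) and Ifitm3 (1.39, SE 0.54). Of 84 exhaustion genes of the study 4 (4.76%) were negative and 1 (1.19%) positive, near or below the shares of 4.91% and 4.67% over all genes. The members that follow are described as single genes. Casp4, an inflammatory caspase, measured 39.7, 40.5, 42.0 and 37.7 CPM in HP1γ KO, 31.4, 28.1, 36.7 and 29.6 CPM in HP1γ WT, 21.9 to 26.2 CPM in HP1α KO and 23.4 to 34.6 CPM in HP1α WT (interaction -0.66, SE 0.16). Penk, the precursor of enkephalins, measured 50.4, 59.6, 31.4 and 40.1 CPM in HP1γ KO and 13.3 to 23.7 CPM in HP1γ WT (interaction -1.25, SE 0.32). Pawr, a proapoptotic factor, had -1.17 (SE 0.32).

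Of 26 inhibitory receptors and exhaustion regulators, Btla (-0.42, SE 0.15) and Lilrb4a (-0.55, SE 0.24), both inhibitory receptors, were negative at an unadjusted p under 0.05 and none was positive. These 2 were 7.69% of the list, against 4.91% over all genes. Of 29 cytotoxic and NK receptor genes 3 were positive, namely Klrk1, Ctsw (0.32, SE 0.12) and Klra9 (1.08, SE 0.48). These 3 were 10.3% of the list, 25 of the 29 estimates were positive and the median was 0.29, with a median KO effect of -0.03 in the HP1α line and -0.22 in the HP1γ line. Over all genes 7987 of 15776 estimates were positive. The count of 3 ran from 2 to 4 with 1 sample left out and from 1 to 5 over the other alternatives. The TCR complex and its signalling had 4 of 50 (8%) positive, among them Cd3g (0.22, SE 0.08) and Lck (0.20, SE 0.08). Positive members also numbered 3 of 39 (7.69%) for early response genes, with Jund and Klf4, and 2 of 61 (3.28%) for interferon-stimulated genes. There were 2 of 25 (8%) for quiescence and central memory, with Satb1, 2 of 23 (8.70%) for effector cytokines and 3 of 34 (8.82%) for sterol synthesis. Over all genes the share was 4.67%. No member of these lists had a negative interaction at that threshold. Among quiescence and central memory genes 20 of 25 estimates were positive (median 0.16). Several of these counts rested on single samples. That of interferon-stimulated genes ran from 1 to 10 with 1 sample left out, the highest without HP1α WT replicate 2. That of quiescence genes ran from 0 (without HP1α KO replicate 2, HP1α WT replicate 2 or HP1γ KO replicate 4) to 4 (without HP1γ KO replicate 3), and that of the TCR complex from 1 (without HP1γ WT replicate 1) to 5.

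The study had listed genes that were both more open and more highly expressed in KO conventional T cells exposed to regulatory T cells, in separate experiments. Of 138 tested genes of its HP1γ list 14 (10.1%) had a negative interaction at an unadjusted p under 0.05 and 1, Agpat4, a positive one (median -0.17). Dnah12 and Oxsr1 were members past the adjustment, followed by Fat1. The non-coding gene 5730507C01Rik measured 8.53, 8.31, 8.98 and 9.29 CPM in HP1γ KO and 0.0304 to 0.194 CPM in HP1γ WT, but also 1.58 to 3.06 CPM in HP1α KO against 0 to 0.790 CPM in HP1α WT. Its estimates thus had the same sign in both lines, 2.83 in HP1α and 6.26 in HP1γ, with an interaction of -3.43 (SE 0.82, adjusted p = 0.22), and passed without HP1α WT replicate 3 (adjusted p = 0.036). The same held for 2410018L13Rik, at 1.64 and 3.97 (interaction -2.33, SE 0.59). Of 49 tested genes of the HP1α list 4 (8.16%) were positive and 1 (2.04%), Gm49553, negative (median 0.05). Gm49553 passed without HP1α WT replicate 3 (-1.10, adjusted p = 0.040).

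The positions of the genes were compared with the deleted loci. Within 10 Mb of Cbx5, 8 of 132 other tested genes (6.06%) had an interaction at an unadjusted p under 0.05, and within 10 Mb of Cbx3 10 of 105 (9.52%). These shares pool both directions. Over all genes tested 1511 of 15776 were at that threshold with both directions pooled, and neither 10 Mb window had a higher share. For Cbx3 this depended on the window, as the share was 12.2% within 5 Mb and 8.97% within 25 Mb. For Cbx5 these shares were 8.16% and 7.32%. Within 10 Mb, 7 genes near Cbx5 were positive and 1 negative, against 4 and 6 near Cbx3. Among the autosomes the share ran from 7.02% on chromosome 16 to 12.2% on chromosome 17. Within 1 Mb of Gm47015, on chromosome 10, 8 of 52 tested neighbours were positive and 2 negative. Within 1 Mb of Mbd1, on chromosome 18, 3 of 13 were negative and 1 positive. Over all genes the shares were 4.67% positive and 4.91% negative.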

How the data were processed

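RNA of sorted memory CD4+ T cells was prepared with a stranded mRNA kit and sequenced as paired ends by the study, which aligned the reads with STAR and quantified them with Salmon (nf-core/rnaseq) against the Ensembl annotation of GRCm39. The deposited values were estimated counts per gene (11.6% not whole, here rounded) and TPM values, scaled for transcript length and depth, both made by the authors. The libraries held 26694045 to 40199637 counts, and the floor of 3 counts used for genes at 0 covers counting error only.

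Groups were taken from the sample labels. Genes passing filterByExpr (minimum count 10) were fitted over all 16 samples with edgeR 4.0.16 (TMM, quasi-likelihood test, cell means of 4 groups) in R 4.3.3. The interaction was (HP1α KO − HP1α WT) − (HP1γ KO − HP1γ WT), two-sided with Benjamini-Hochberg adjustment over all genes tested. DESeq2 1.42.0, limma 3.58.1 on log2 TPM, other filters and scalings, replicate blocks and leaving out each sample were alternatives. The fit was tested on simulated data.

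Named genes were Cbx5, Cbx3 and Cbx1, all genes past the adjustment, the next 15 in each direction and up to 4 of smallest p per gene list, with the rest of a short count named after its values were seen. Members and lists were chosen with earlier results of these data known. Positions and classes came from GENCODE vM39 (GRCm39) for 15697 of the genes tested, and shared transcript sequence was searched with blastn (at least 150 bases at 98% identity). No pair of samples agreed within sampling noise. By chi-square per gene, a distance between 2 samples, replicates 1 and 2 of the HP1γ line were close, as were 3 and 4. The values were 10.0 and 18.8 in KO (other pairs 24.8 to 38.0) and 13.9 and 13.3 in WT (31.9 to 39.4). In the HP1α line replicate 3 lay farthest from the others in KO and in WT. This grouping was not modelled in the main fit. Whether the KO effect differed between the replicate pairs of the HP1γ line was not tested. Same-numbered KO and WT samples did not deviate together in every pair, so no block was used there. Values of some single list members are not reported here.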

Additional observations from a re-analysis of the deposited data

Results flagged for a closer look

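The KO effects of the lines differed past the adjusted threshold of the interaction for 8 genes, with log2 differences of -1.04 for Mbd1, -4.98 for Dnah12, 0.81 for Marchf6, -1.12 for Gm47015, -2.03 for Shisa6, -5.12 for Gm49215, -0.82 for Oxsr1 and -0.79 for Als2cl.

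Single samples lay far from the other 3 of their group in 8 of 159 groups examined for the genes named by rank, where chance gives about 1 in 20. Als2cl was 285 CPM in HP1α WT replicate 4 against 221 to 223 in the others. Ndufa6 was 68.9 CPM in HP1α KO replicate 3 against 67.3 to 67.5, and 60.5 CPM in HP1α WT replicate 2 against 63.2 to 63.5. Flywch1 was 38.6 CPM in HP1α KO replicate 3 against 43.1 to 43.9. Jag1 was 9.60 CPM in HP1γ KO replicate 4 against 19.8 to 21.2, and A930004J17Rik was 17.8 CPM in the same sample against 26.2 to 27.6. Zfp992 was 3.904 CPM in HP1α KO replicate 1 against 2.71 to 2.91. Dnah8 was 157 CPM in HP1γ KO replicate 3 against 114 to 118.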

How the results depend on the processing

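The count of genes past both thresholds (5) and at the adjusted p alone (8) was 36 and 80 with DESeq2, 11 and 14 with no filter on low counts, and 10 and 13 with a replicate block within line. Under that block 6 of the 8 genes were among the 13, and Shisa6 (adjusted p = 0.052) and Oxsr1 (0.074) lost their call. The count past both thresholds was 3 with at least 10 counts in every sample, 3 without receptor segments, predicted genes and pseudogenes, and 8 on log2(TPM + 1), and that at the adjusted p was 4 on log2(TPM + 0.1). With a replicate block across lines the counts were 5 and 6. With 1 sample left out they ranged from 5 to 9 and from 7 to 12, and the genes at an unadjusted p under 0.05 from 1152 to 1895. All 8 genes were also called by DESeq2. Of 4318 recomputed differences of named genes 23 lost and 61 gained the adjusted threshold, and 11 reversed, all far from it. These were Cd8a with a replicate block within line (-0.16) and on the TPM scales (-0.20 and -0.28), Pax5 on log2(TPM + 1) (0.069) and, with 1 sample left out, Cd8a (-0.91 to 0.84), Igkc (-0.064 to 1.22), Cbx1 (-0.064 to 0.13) and Cd8b1 (-0.013 to 0.59). The cause was not tested. Numbers of KO and WT samples had deviation correlations of 0.09 to 0.23 in the HP1α line and 0.003 to 0.15 in the HP1γ line, and 3 and 1 of 4 KO samples correlated best with their own number.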

Other observations

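Further gene lists gave small counts at an unadjusted p under 0.05, where the shares over all genes were 4.67% positive and 4.91% negative. Of 22 genes of the circadian clock, Npas2 was positive (0.54, SE 0.20), whereas Clock (-0.27, SE 0.10) and Hlf (-0.78, SE 0.34) were negative. Npas2 and Clock encode alternative partners of the same clock heterodimer. Of 31 genes of chemokine receptors and homing, Itgb7, a subunit of the gut-homing integrin, was positive (0.28, SE 0.12). That count of 1 ran from 0 to 3 with 1 sample left out and was 7 with a replicate block within line. Of 19 follicular helper genes Btla was negative and none positive, and of 9 GIMAP genes Gimap6 was negative (-0.18, SE 0.08). Of 37 heat shock and chaperone genes Hspa4l was negative (-0.54, SE 0.23), of 32 survival genes Bmf, a BH3-only protein, was positive (1.01, SE 0.45), and of 47 cytokine receptor and JAK-STAT genes Il27ra was positive. None of these genes passed the adjustment over all genes (edgeR's quasi-likelihood test).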
